A study of Mus musculus with 11 samples.

Results

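Adventitia that held artery tertiary lymphoid organs (ATLO) was compared with adventitia away from the lesions in mice of the same genotype, across the whole transcriptome. The comparison used 8 of the 11 arrays of the series, chosen by title and tissue label: 4 of ATLO adventitia within the atherosclerotic lesion area and 4 of outside-lesion adventitia. All 8 came from the abdominal aorta of male mice of strain B6.129P2-Apoe<tm1Unc>/J, which carry a disrupted Apoe gene, aged 78 weeks and fed standard chow. Each sample pooled the laser-cut adventitia of 200 frozen sections of 10 micrometres. The aorta had been taken out together with the lymph nodes, fat and connective tissue that lie beside it. RNA was purified with phenol and chloroform and a micro-column kit, and in vitro transcription ran for 68 h in both groups. The labels name no agent for either group. The remaining 3 arrays, of wild-type adventitia from male C57BL mice of 78 weeks that went through another extraction kit and 24 h of transcription, contributed to the estimate of the spread and to the check of Apoe.

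The labels describe the second group as tissue outside of the lesion area, while the series' design text speaks of mice without lesions, so whether both tissues came from the same animals is not known. The labels do not state that the arrays within a group are separate mice, so the p-values speak of the spread among these samples alone, part of which may be technical. ATLO tissue was cut out because it held lymphoid aggregates, so a higher level of lymphocyte genes follows in part from that choice. In bulk tissue of this kind, fewer cells of a type and less RNA per cell cannot be told apart.

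An ATLO is a lymph-node-like structure that forms in the adventitia beside advanced plaques of old Apoe-deficient mice. Its B cell follicles, which can hold germinal centres, are built around follicular dendritic cells that secrete Cxcl13, and its T cell areas hold dendritic cells and specialised venules through which lymphocytes enter. Lymphotoxin made by lymphocytes acts on stromal cells, which answer with the chemokines that recruit more lymphocytes. Adventitia away from plaques is a looser tissue of fibroblasts, resident macrophages, small vessels, nerve fibres and mast cells, and it borders on perivascular fat, which in the mouse contains both white fat cells, which store triglyceride, and brown fat cells, which burn it for heat in mitochondria that carry Ucp1.

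Signals are the deposited linear intensities. A floor was set at 35.1, the 20th percentile of the deposited values, to which lower values were raised before log2 was taken, so folds near the floor are understated. Log2 changes, or differences, are ATLO minus outside-lesion with their standard errors, and where 4 signals are listed for a group they stand in the order of replicates 1 to 4. Apoe itself read 150.0, 147, 150.2 and 86.9 in ATLO against 59.8, 179.7, 45.9 and 154 outside the lesion, while wild type read 12417 ± 651 (SD, n = 3), so all 8 arrays were low for the disrupted gene. The arrays' median signals ran from 151.5 to 187, and the number of arrays limits the precision. The ratio of the 3' to the 5' actin control signal, which rises as RNA is degraded or transcripts are shortened, was 4.99, 1.71, 8.14 and 3.58 in ATLO and 10.2, 6.22, 12.0 and 6.47 outside the lesion, and the groups overlapped (exact two-sided permutation test, p = 0.114, where 4 arrays against 4 allow no p under 0.0286). In a principal component analysis of the 8 arrays the first component held 55.8% of the variance and placed all ATLO arrays between 43.4 and 66.6 and all outside-lesion arrays between -58.5 and -37.9. The second, with 13.2%, lay within the outside-lesion group, where replicates 1 and 2 stood at 30.1 and 36.0 and replicates 3 and 4 at -33.1 and -31.0.

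About 1 in 3 measured probe sets differed between the tissues: limma called 4777 of 14988, or 31.9%, of which 2688 were higher and 2089 lower in ATLO (p under 0.05 after Benjamini-Hochberg adjustment). With the arrays brought to equal medians, which moved the median log2 change by -0.12, the calls were 1985 higher and 2517 lower, so the balance between directions depends on the scaling. Called changes were of moderate size, with a median of 0.99 on the log2 scale. They were at least 2-fold in 1279 higher and 1067 lower probe sets, at least 4-fold in 340 and 111, and at least 16-fold in 14 and 4. The largest rises thus outnumbered the largest falls. Bright probe sets were called more often than dim ones, 46.9% in the brightest of 4 equal classes against 19.2% in the dimmest. Of the calls in the brightest class 47.2% were higher in ATLO, against 60.6% to 63.7% in the other classes. Probe sets called higher held 21.8% to 26.8% of the summed signal on each ATLO array and 9.62% to 11.3% on each outside-lesion array. Those called lower held 13.8% to 16.1% and 29.5% to 37.5%.

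**Figure D1:**
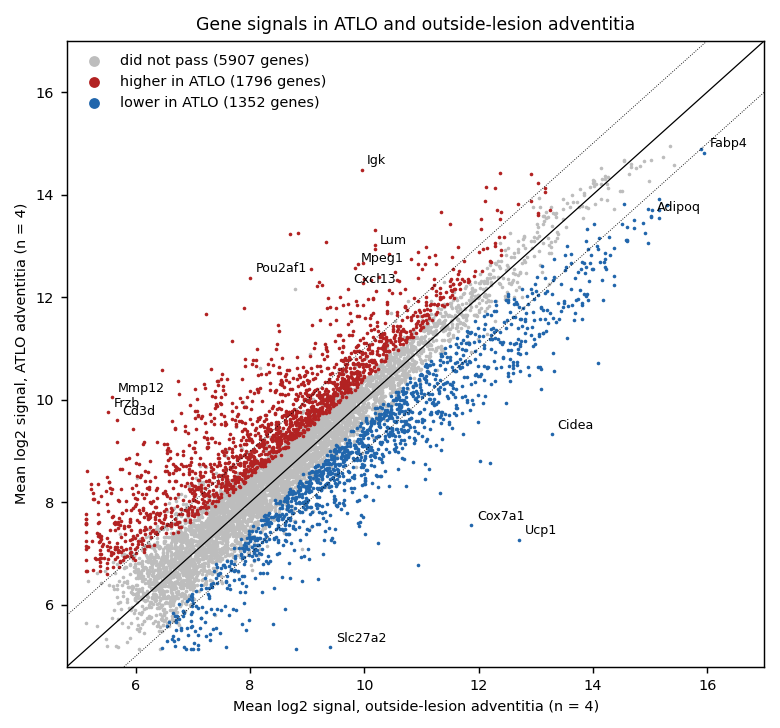
Mean log2 signal of each of 9055 genes in ATLO (vertical axis) against outside-lesion adventitia (horizontal axis), 4 arrays each, with genes called higher in red, lower in blue and others in grey. The solid line marks equal signal and dotted lines a 2-fold difference, and 1796 genes were called higher and 1352 lower.

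With 1 probe set per gene, 1796 of 9055 genes were called higher (19.8%) and 1352 lower (14.9%), and the arrays of the groups did not overlap for 3022 genes (33.4%). These shares are the background for the counts of each gene list below, and the median log2 change over all genes was 0.11. A gene was measured if at least 3 arrays lay above their 40th percentile, so genes seen on the ATLO arrays alone were kept. Such genes could rise but hardly fall, so counts of lists that hold them follow in part from the filter. Some genes stand in more than 1 list, so the counts of different lists are not independent. The most sharply separated rise belonged to Mpeg1, a pore-forming protein of macrophages, which read 6134, 6571, 6554 and 5197 in ATLO against 928, 1104, 810.0 and 845 outside the lesion (log2 difference 2.73 ± 0.14, adjusted p = 3.36e-07). Next came Tnfsf13b, the B cell survival factor BAFF, at 1096, 979, 1078 and 1039.5 in ATLO against 261, 262, 202 and 188 outside the lesion (log2 difference 2.21 ± 0.15, adjusted p = 4.10e-06). It was followed by Frzb, a secreted Wnt antagonist, at 1069.5, 793, 916 and 728 in ATLO against 90.8, 40.2, 15.1 and 20.9 outside the lesion (log2 difference 4.23 ± 0.29, adjusted p = 4.10e-06). For each of the 3 genes the lowest ATLO array lay well above the highest outside-lesion array. Frzb was among the 10 largest rises of all, 18.8-fold, with 2 outside-lesion arrays under the floor. The kinase Syk (2.13), the inhibitory receptor Pirb (2.85) and the selectin ligand Selplg (1.93) completed the 6 rises with the largest moderated t, all given as log2 changes.

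The falls with the largest moderated t included enzymes of mitochondrial breakdown of fatty acids and amino acids. Echs1, which hydrates enoyl-CoA in fatty acid oxidation, read 784, 763, 636 and 802 in ATLO against 2944, 2381, 3199 and 2976 outside the lesion (log2 difference -1.94 ± 0.14, adjusted p = 4.10e-06). Hibch, of valine breakdown, changed by -1.98, Pcca, a subunit of propionyl-CoA carboxylase, by -1.77, and Cluh, which binds mRNAs of mitochondrial proteins, by -1.70 on the log2 scale. Amy1, an amylase, changed by -2.32. The uncharacterised gene 1110032A03Rik changed by -1.58. All of these separated the groups without overlap.

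In plain signal, the largest gains included immunoglobulin, antigen presentation and collagen genes, and the largest losses were of fat and mitochondrial genes. Igk, the kappa light chain, read 57922, 14117, 21190.4 and 15954 in ATLO against 428, 2386, 257 and 3693 outside the lesion (log2 difference 4.53 ± 0.74, adjusted p = 4.46e-04). Jchain, which links IgA and IgM into polymers, read 41691, 13095, 27022 and 15754 in ATLO against 2544, 6343, 6509 and 7553 outside the lesion (log2 difference 2.05 ± 0.53, adjusted p = 0.0102). The class II chain H2-Eb1 read 20413, 12569, 23569 and 18019.7 in ATLO against 4916, 4999.6, 3015 and 5414 outside the lesion. Its invariant chain Cd74 read 19017, 11150.2, 23934 and 20244 in ATLO against 5943, 5500.0, 3419.7 and 5584 outside the lesion. The fibril collagen Col3a1 read 25948, 12359, 28787 and 24028 in ATLO against 14108, 6329.8, 5005 and 7896 outside the lesion, and of these 5 genes it alone overlapped between the groups. Outside the lesion the brightest probe set on each of the 4 arrays was Fabp4, the fatty acid carrier of fat cells, at 47631, 13919, 33861 and 30782 in ATLO against 108480.0, 62843, 47332 and 49840.3 outside the lesion (log2 difference -1.14 ± 0.36, adjusted p = 0.0278). Fabp4 overlapped between the groups, and its call was lost without ATLO replicate 2, ATLO replicate 4 or outside-lesion replicate 1 (log2 changes -0.78, -1.17 and -0.88). The fat-cell carbonic anhydrase Car3 was also called lower, at 52505, 15525, 35957 and 28399 in ATLO against 98516, 60695, 47244 and 48686 outside the lesion, and its call was lost without ATLO replicates 2, 3 or 4 or outside-lesion replicates 1 or 2, where the log2 change lay between -1.10 and -0.69. Hadh, of fatty acid oxidation, read 10918, 5438, 9872 and 9236 in ATLO against 40450.0, 23279, 33870.1 and 32208 outside the lesion. ND5, a mitochondrially encoded complex I subunit, read 18576, 11679, 13154 and 14187 in ATLO against 57967, 36426, 36768 and 33829 outside the lesion. These last 2 did not overlap. The lysozyme gene Lyz1 was a further large gain, at 28951, 12332, 23343 and 16576 in ATLO against 13182, 9537, 5647 and 7080.1 outside the lesion, and it overlapped between the groups. Further large losses were those of the acyl-CoA binding protein Dbi, at 15301, 8168, 16612 and 15415 in ATLO against 37809, 31110.1, 38274 and 40416 outside the lesion, and of the transketolase Tkt, at 15859, 6611, 13596 and 14398 in ATLO against 32997, 36383, 38239 and 38289.7 outside the lesion. Among the largest falls by ratio were also Coq8a, of coenzyme Q synthesis, at 470.5, 289, 448 and 644 in ATLO against 5924, 748, 8323 and 8024 outside the lesion (log2 difference -3.22 ± 0.60, adjusted p = 0.00118). Pank1, of coenzyme A synthesis, was another, at 214, 258, 352 and 375 in ATLO against 3521, 564, 5178 and 4261 outside the lesion (log2 difference -3.14 ± 0.57, adjusted p = 9.74e-04).

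**Figure D2:**
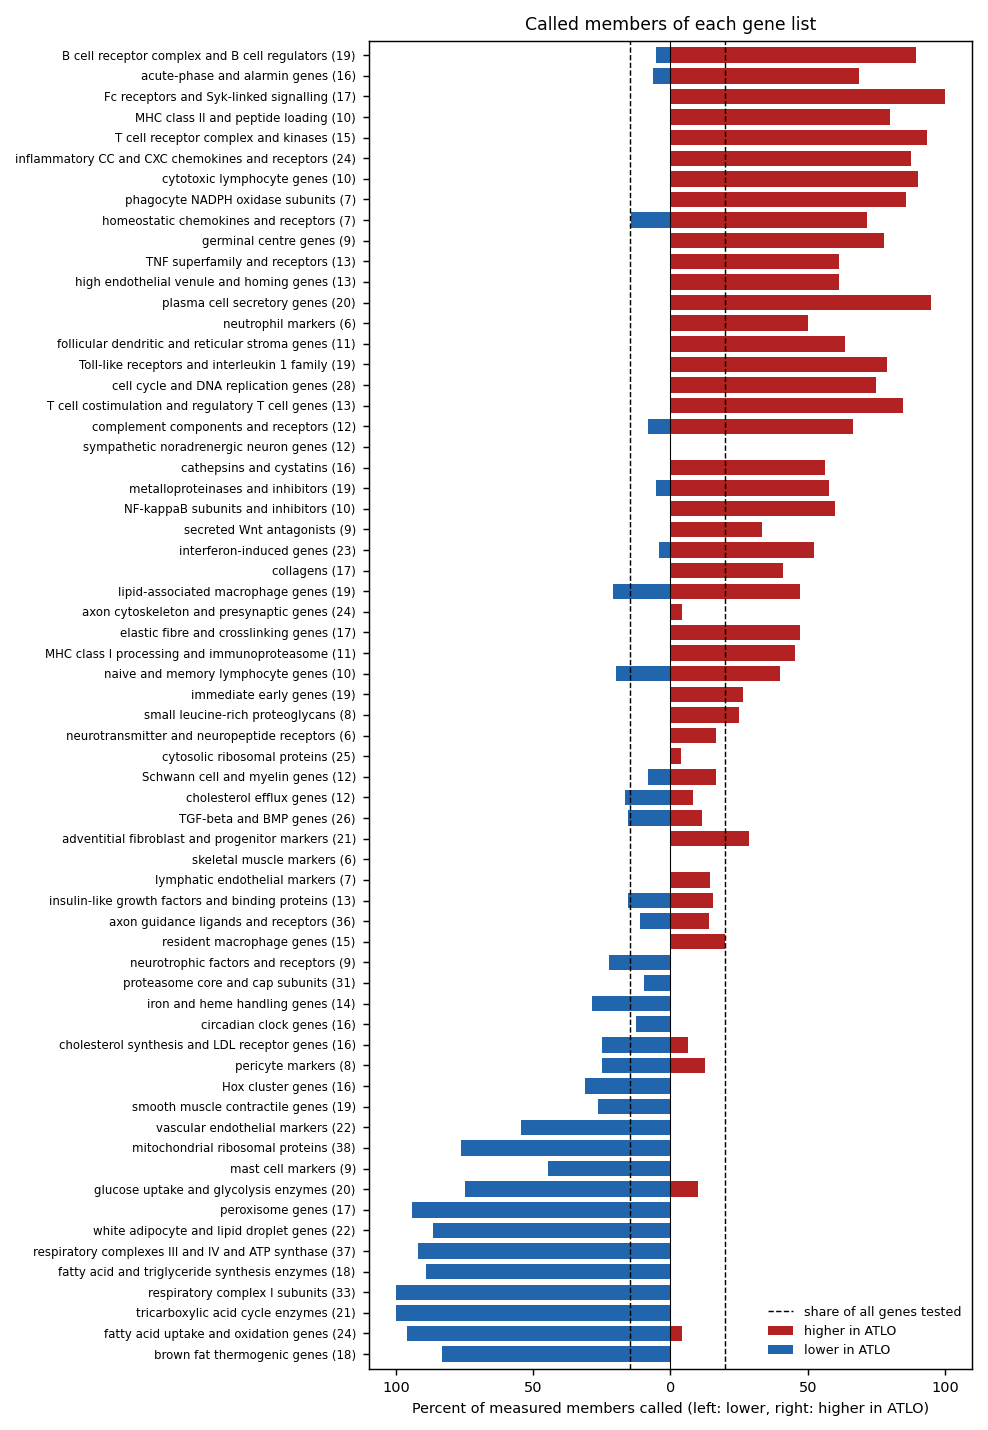
Percent of measured members of each gene list called higher (red, right) or lower (blue, left) in ATLO by limma, ordered by the list's median log2 change, for lists with at least 6 measured members (number in brackets). Dashed lines mark the 19.8% higher and 14.9% lower among all genes. Most lists of immune cells lie towards the top and lists of mitochondria and fat towards the bottom. Resident macrophage and naive and memory lymphocyte genes lie between, and mast cell markers lie among the lower lists.

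Chemokines that organise lymphoid tissue and their receptors were higher in 5 of 7 measured members, lower in 1, with a median log2 change of 1.76. Cxcl13, which draws B cells into follicles, read 4074, 5202, 4987 and 4252 in ATLO against 718, 590.0, 1168 and 1004 outside the lesion (log2 difference 2.46 ± 0.25, adjusted p = 2.20e-05). Its receptor Cxcr5 read 238, 605, 150.2 and 373 in ATLO against 77.1, 74.0, 102 and 121 outside the lesion (log2 difference 1.71 ± 0.42, adjusted p = 0.00696), a call lost with the actin ratio as a covariate. Cxcl12, made by stromal cells, was bright in both tissues, at 17476, 10853, 19288 and 13705 in ATLO against 6163, 5444, 2736 and 4119 outside the lesion, and was called higher by 1.76 on the log2 scale. Its receptor Cxcr4 read 749, 934, 584 and 582 in ATLO against 56.0, 112, 108 and 167 outside the lesion (log2 difference 2.76 ± 0.31, adjusted p = 3.54e-05). Ccr7, the receptor that brings T cells and dendritic cells into T cell areas, was under the floor on all 4 outside-lesion arrays and read 240.2, 221, 139.9 and 235 in ATLO, at least 5.82-fold higher. S1pr1, the receptor with which lymphocytes leave lymphoid tissue and which vessels also express, went the other way, at 300.5, 346, 275 and 328 in ATLO against 568, 524, 455 and 362 outside the lesion (log2 difference -0.60 ± 0.17, adjusted p = 0.0147). The ligands of Ccr7, Ccl19 and Ccl21a, were not analysed here.

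Among TNF family ligands and receptors, 8 of 13 were higher and 0 lower (median 1.70). Ltb, the membrane-bound chain of lymphotoxin, read 796, 1646, 883 and 1733 in ATLO against 97.8, 76.6, 231 and 170.1 outside the lesion (log2 difference 3.18 ± 0.48, adjusted p = 2.62e-04). The BAFF receptors Tnfrsf13b (TACI) and Tnfrsf13c rose with their ligand. Tnfrsf13b read 884, 1918, 719.9 and 698 in ATLO against 55.1, 152, 130.5 and 212 outside the lesion. Tnfrsf13c read 706, 1732, 618 and 1057 in ATLO against 73.5, 148, 274 and 299 outside the lesion. Cd40, the receptor for T cell help, read 305, 538, 285 and 453 in ATLO against 91.0, 79.0, 115 and 123 outside the lesion (log2 difference 1.93 ± 0.33, adjusted p = 6.88e-04). The lymphotoxin receptor Ltbr, a stromal gene, did not pass (log2 change -0.17). In the NF-kappaB pathway, which these receptors engage, 6 of 10 members were higher and 0 lower (median 0.94). Nfkb2, the precursor of the alternative pathway, read 459, 500.5, 494 and 644 in ATLO against 17.4, 192, 61.6 and 183 outside the lesion (log2 difference 2.48 ± 0.49, adjusted p = 0.00187), a call lost with the actin covariate. Ikbke, a kinase of the pathway, was under the floor on every outside-lesion array and read 180.3, 199, 183 and 199 in ATLO, at least 5.41-fold higher.

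B cell genes had the highest median of the lists examined, 2.50 on the log2 scale, with 17 of 19 members higher and 1 lower. Pou2af1, the coactivator that B cells need for immunoglobulin transcription, read 6813, 7248, 4703 and 3465 in ATLO against 126, 245, 380.1 and 373 outside the lesion, 20.7-fold apart. Cd79a, a signalling chain of the B cell receptor, read 1186, 2223, 809 and 1229 in ATLO against 74.9, 127, 196 and 253 outside the lesion (log2 difference 3.11 ± 0.55, adjusted p = 7.76e-04). The tetraspanin Cd37 read 514, 1073, 481 and 840.5 in ATLO against 33.1, 68.3, 169 and 35.9 outside the lesion (log2 difference 3.47 ± 0.72, adjusted p = 0.00248). ATLO replicate 2 was the highest array for these receptor genes, and outside-lesion replicates 3 and 4 were higher than replicates 1 and 2 for Cd79a. The list's single fall was Ebf1, a B lineage factor that fat precursors and fibroblasts also express, at 547, 405, 335 and 632 in ATLO against 1208, 1100.4, 688 and 838 outside the lesion (log2 difference -1.01 ± 0.23, adjusted p = 0.00429). Of 9 germinal centre genes 7 were higher and 0 lower (median 1.71, 4 higher with the actin covariate). The 2 with the largest change, Icos and Pdcd1, are receptors of follicular helper T cells. Icos read 376, 328, 190.1 and 253 in ATLO against 10.4, 51.6, 49.6 and 14.1 outside the lesion (log2 difference 2.72 ± 0.32, adjusted p = 4.88e-05), and Pdcd1 was under the floor on all outside-lesion arrays and at 182, 221, 219.8 and 261 in ATLO, at least 6.25-fold higher. A gene under the floor on all outside-lesion arrays, as Pdcd1 was, could not have been called lower. Bcl6, the master factor of germinal centres, did not pass (log2 change 0.09).

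Plasma cells secrete antibody at rates that fill the endoplasmic reticulum with unfolded protein, and chaperones of that compartment are induced through a promoter motif called the endoplasmic reticulum stress element. Of 20 measured genes of this secretory apparatus 19 were higher and 0 lower (median 1.47). Txndc5, a disulphide isomerase, read 8160.4, 5709.5, 5493 and 2065 in ATLO against 358, 628, 640.4 and 762 outside the lesion (log2 difference 3.06 ± 0.38, adjusted p = 6.84e-05). Creld2, a secreted chaperone-like protein, read 6801, 6218, 5838 and 2261 in ATLO against 602, 525, 541 and 812 outside the lesion (log2 difference 2.99 ± 0.46, adjusted p = 2.83e-04). Derl3, of the export channel for misfolded proteins, read 1493, 1752, 1384 and 498 in ATLO against 46.7, 265, 312 and 206 outside the lesion. The general chaperone Hspa5 read 17051, 11526, 18505 and 11936 in ATLO against 8756, 5279.6, 5686 and 7349 outside the lesion (log2 difference 1.12 ± 0.29, adjusted p = 0.0103). For Txndc5, Creld2 and Derl3, ATLO replicate 4 was the lowest ATLO array and still above every outside-lesion array. The factors Prdm1 and Xbp1, which drive plasma cell identity and secretion, rose by 1.99 and 0.95 on the log2 scale. Immunoglobulin genes, outside this list, had larger changes. Iglv1, a lambda light chain segment, read 12891, 11790.4, 10039.8 and 5522 in ATLO against 87.3, 679, 273 and 1894 outside the lesion, 22.9-fold apart, although probe sets of the closely similar immunoglobulin segments can share signal. Under the same limit Igha, the IgA heavy chain, read 7224, 11320.1, 8813 and 7836 in ATLO against 1783, 130.1, 239.5 and 3057 outside the lesion, a call lost without ATLO replicate 2 or outside-lesion replicates 2 or 3, at 2.99 to 3.63 on the log2 scale. The kappa segment Igkv9-120 read 4457, 8035, 2107 and 2136 in ATLO against 338, 95.1, 121 and 838 outside the lesion.

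The stress element (CCAAT, any 9 bases, then CCACG, searched on both strands) occurred in 0.113% of 32851 promoters of 250 bases before a RefSeq start in the GRCm38.p6 table. It was found in 5 of the 22 promoters (22.7%) that the table holds for 19 of the 20 secretory genes, namely Creld2, Derl3, Hsp90b1, Hspa5 and Pdia6. Among all genes called higher the share was 0.54%, and among those called lower 0.07%. A match describes the letters in that window and is not a measured site. The promoters of Creld2, Derl3 and Hspa5 are shown as examples, with the element in capitals. Creld2 lies at chr15:88819396-88819645 on the plus strand, Derl3 at chr10:75893148-75893397 on the plus strand and Hspa5 at chr2:34771840-34772089 on the plus strand, and each is printed 5′ to 3′ up to the base before the start.
Creld2: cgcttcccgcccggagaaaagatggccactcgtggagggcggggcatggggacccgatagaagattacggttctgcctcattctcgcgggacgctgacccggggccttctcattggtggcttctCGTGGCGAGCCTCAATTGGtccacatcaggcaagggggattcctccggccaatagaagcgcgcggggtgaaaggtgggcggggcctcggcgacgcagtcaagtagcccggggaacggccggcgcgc
Derl3: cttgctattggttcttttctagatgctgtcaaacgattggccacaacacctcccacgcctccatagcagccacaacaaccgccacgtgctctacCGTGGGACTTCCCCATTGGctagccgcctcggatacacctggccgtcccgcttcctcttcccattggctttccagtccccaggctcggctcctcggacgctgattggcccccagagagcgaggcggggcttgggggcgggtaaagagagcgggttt
Hspa5: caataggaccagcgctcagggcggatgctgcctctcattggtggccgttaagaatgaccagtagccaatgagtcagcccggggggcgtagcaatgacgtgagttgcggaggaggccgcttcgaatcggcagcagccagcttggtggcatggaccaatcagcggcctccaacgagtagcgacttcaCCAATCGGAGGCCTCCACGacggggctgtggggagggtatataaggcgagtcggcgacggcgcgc
The element begins 126, 156 and 65 bases before the start, and in Creld2 and Derl3 it reads on the opposite strand. The log2 changes of the 3 genes, in the same order, were 2.99, 2.79 and 1.12.

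T cell receptor chains and kinases were higher in 14 of 15 members and lower in 0 (median 1.96). Cd3d read 740.2, 1584, 458 and 684 in ATLO against 11.9, 20.6, 43.3 and 128 outside the lesion (log2 difference 3.93 ± 0.51, adjusted p = 9.36e-05), with 2 outside-lesion arrays under the floor. Cd3g read 734, 1293, 692 and 913 in ATLO against 164, 134, 98.5 and 149 outside the lesion (log2 difference 2.71 ± 0.32, adjusted p = 5.50e-05). Cd3e read 232, 459, 349 and 363 in ATLO against 119, 179.8, 24.8 and 29.5 outside the lesion (log2 difference 2.25 ± 0.52, adjusted p = 0.00504). ATLO replicate 2 was the highest array for all 3 chains of the receptor complex. The list member that did not pass was the kinase Zap70, at 394, 406, 555 and 168 in ATLO against 639.5, 263.5, 837 and 146 outside the lesion (log2 change -0.12). With the actin ratio as a covariate, 9 members of the list were called and Cd3e was not. Bcl11b, a factor of T cell identity, and Sh2d2a, an adaptor of T cell signalling, were under the floor on all outside-lesion arrays and at least 5.85-fold and 4.86-fold higher in ATLO. Haao, an enzyme of tryptophan breakdown, and Gstp3, a glutathione transferase, had the same pattern, at least 5.51-fold and 3.87-fold higher.

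Costimulatory and regulatory T cell genes were higher in 11 of 13 members and lower in 0 (median 1.21), and 7 were higher without ATLO replicate 4 and 5 with the actin covariate. Tnfrsf18 (GITR), carried by regulatory T cells, read 385, 537, 237 and 348 in ATLO against 45.2, 116, 83.9 and 96.6 outside the lesion (log2 difference 2.16 ± 0.36, adjusted p = 5.41e-04). Cytotoxic lymphocyte genes were higher in 9 of 10 (median 1.79, 5 with the actin covariate). Klrd1, a receptor of natural killer and CD8 T cells, read 439, 781, 508 and 567 in ATLO against 114, 97.9, 92.7 and 74.6 outside the lesion (log2 difference 2.58 ± 0.23, adjusted p = 1.37e-05). Ccl5, a chemokine these cells release, read 2096, 3273, 1465 and 2212 in ATLO against 384, 503, 222 and 366 outside the lesion (log2 difference 2.62 ± 0.26, adjusted p = 1.99e-05). Genes of resting and memory lymphocytes were mixed, with 4 of 10 higher and 2 lower (median 0.30). Il7r, the interleukin 7 receptor of naive and memory T cells and of innate lymphoid cells, had the largest rise there, at 1634, 1878, 1280.3 and 1455 in ATLO against 248, 169.6, 129.5 and 122 outside the lesion (log2 difference 3.27 ± 0.27, adjusted p = 1.11e-05), while its ligand Il7 did not pass (log2 change 0.32). Beside S1pr1 the other fall was Il15ra, which presents interleukin 15 to lymphocytes, at 422, 372, 439.8 and 308 in ATLO against 556, 539.6, 927 and 496 outside the lesion (log2 difference -0.68 ± 0.24, adjusted p = 0.0494), a call lost without ATLO replicates 1, 2, 3 or 4 or outside-lesion replicates 1, 2 or 3, at -0.74 to -0.47.

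**Figure D3:**
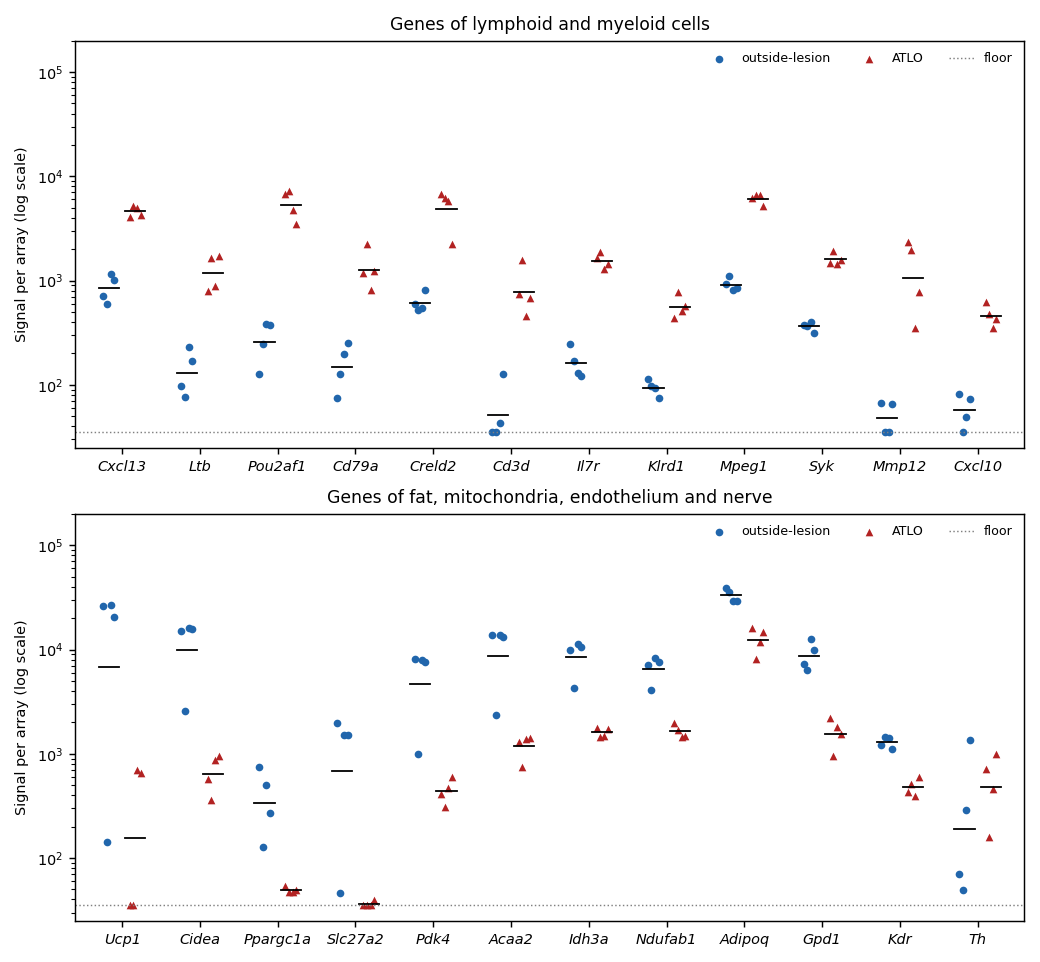
Signal on each array (log scale) of 12 lymphoid and myeloid genes (top) and 12 genes of fat, mitochondria, endothelium and nerve (bottom), outside-lesion arrays as blue circles and ATLO arrays as red triangles, with values under the dotted floor of 35.1 drawn on it and black bars at the mean of log2 signals (n = 4). Every gene of the upper panel separate the groups, while Ucp1 and Th overlap, and outside-lesion replicate 2 is the low circle of Ucp1, Cidea, Slc27a2, Pdk4, Acaa2, Idh3a and Ndufab1.

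Every measured member of the list of Fc receptors and their Syk-linked partners was higher, 17 of 17, with a median of 2.12. Vav1, an exchange factor downstream of Syk, read 335, 545, 313 and 468 in ATLO against 49.8, 43.1, 45.3 and 82.3 outside the lesion (log2 difference 2.93 ± 0.30, adjusted p = 2.20e-05). Pirb read 1259, 1039, 1540.1 and 1206 in ATLO against 174, 154, 144 and 233 outside the lesion (log2 difference 2.85 ± 0.21, adjusted p = 6.85e-06). The phagocyte NADPH oxidase, which makes superoxide, was higher in 6 of 7 subunits (median 1.77). Its subunit Ncf4 read 773, 1067, 1047 and 1008 in ATLO against 137, 137, 199 and 218 outside the lesion (log2 difference 2.52 ± 0.25, adjusted p = 1.90e-05). The GTPase Rac2 read 1812, 3493, 1409 and 1959 in ATLO against 204, 430.2, 355 and 482 outside the lesion (log2 difference 2.55 ± 0.34, adjusted p = 1.13e-04). Nox4, the oxidase of vessel-wall cells, was the member that did not pass (0.43). Toll-like receptors and the interleukin 1 family were higher in 15 of 19 (median 1.3). Tlr1, which senses bacterial lipopeptides, read 874, 1456, 830.2 and 1272 in ATLO against 119, 131, 187 and 228 outside the lesion (log2 difference 2.74 ± 0.35, adjusted p = 7.46e-05). The cytokine gene Il1b read 678, 656, 524 and 872 in ATLO against 93.1, 132, 88.3 and 172 outside the lesion (log2 difference 2.52 ± 0.26, adjusted p = 2.20e-05). Acute-phase and alarmin genes were higher in 11 of 16 and lower in 1 (median 2.18). Saa3, a serum amyloid of macrophages and fat cells, read 3664, 2014, 6270.4 and 2450.4 in ATLO against 714, 50.8, 99.7 and 139.5 outside the lesion (log2 difference 4.44 ± 0.64, adjusted p = 1.80e-04). The protease inhibitor Slpi read 15528, 12872, 17172 and 2618 in ATLO against 379.9, 246, 304 and 1539.5 outside the lesion (log2 difference 4.41 ± 1.09, adjusted p = 0.00738). Slpi was spread in both groups, with ATLO replicate 4 low and outside-lesion replicate 4 high. The fall in this list was Orm1, at 1121, 497, 453 and 981 in ATLO against 1280.1, 3558, 1998 and 2244 outside the lesion (log2 difference -1.59 ± 0.32, adjusted p = 0.00214). Neutrophil markers were higher in 3 of 6, and these 3, Lcn2, S100a8 and S100a9, are also made by other myeloid or stromal cells.

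Inflammatory chemokines and receptors were higher in 21 of 24 members and lower in 0 (median 1.86). Cxcl10, which recruits T cells through Cxcr3, read 617, 477, 347 and 432 in ATLO against 81.8, 28.5, 49.5 and 72.7 outside the lesion (log2 difference 3.02 ± 0.29, adjusted p = 1.81e-05). Cxcl1, a neutrophil attractant, read 942, 129, 478 and 818 in ATLO against 48.8, 62.3, 49.3 and 81.8 outside the lesion (log2 difference 2.98 ± 0.50, adjusted p = 5.46e-04), with ATLO replicate 2 far below the other ATLO arrays. Ccr2, the receptor of incoming monocytes, read 1418, 1543, 1607 and 2182 in ATLO against 173, 368, 207 and 358 outside the lesion (log2 difference 2.67 ± 0.28, adjusted p = 2.49e-05).

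Macrophage genes did not move as 1 block. Of 19 genes of lipid-associated macrophages, the foam-like cells of plaque and obese fat, 9 were higher and 4 lower (median 0.62). Mmp12, the macrophage elastase, read 2346, 1959, 351 and 774 in ATLO against 67.4, 23.3, 3.8 and 65.5 outside the lesion (log2 difference 4.45 ± 0.50, adjusted p = 3.59e-05), 21.9-fold apart. Itgax (CD11c) read 699, 1221, 815 and 992 in ATLO against 148, 182, 139 and 207 outside the lesion (log2 difference 2.45 ± 0.24, adjusted p = 1.95e-05). Trem2, a lipid-sensing receptor, was under the floor on all outside-lesion arrays and at 209, 97.5, 209 and 126 in ATLO, at least 4.34-fold higher. The 4 that fell, Cd36 (-1.50), Lpl (-1.33), Plin2 (-1.24) and Fabp4 (-1.14), take up, free, coat or carry fatty acids and are also abundant in fat cells. Of 15 genes of resident adventitial macrophages 3 were higher and 0 lower (median -0.09, a sign that other settings turned). The share higher was near the 19.8% among all genes. Gas6, the ligand for clearance of dying cells, read 6389, 4032, 8338 and 7950.3 in ATLO against 2438, 2179.7, 1599 and 2490.0 outside the lesion (log2 difference 1.58 ± 0.23, adjusted p = 2.12e-04), and Adgre1 (F4/80) and Mrc1 rose by 1.09 and 1.08. Csf1r, Folr2, Cd163 and Lyve1 did not pass, with log2 changes of 0.37, -0.09, -0.43 and -0.22.

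Proteases of macrophages and stroma rose in part. Cathepsins and cystatins were higher in 9 of 16 (median 1.06), led in signal by Ctss, which cleaves the class II invariant chain and elastin, at 19219.7, 8735, 14868 and 11331 in ATLO against 2692, 2868, 1881 and 3082 outside the lesion (log2 difference 2.33 ± 0.26, adjusted p = 3.42e-05), while Ctsb and Ctsd did not pass (-0.18 and -0.29). Ctsw, the cathepsin of cytotoxic lymphocytes, had a similar log2 change of 2.22. Metalloproteinases and their inhibitors were higher in 11 of 19 and lower in 1 (median 0.99). Mmp13, a collagenase, read 742, 775, 226 and 181 in ATLO against 3.0, 18.7, 23.9 and 36.4 outside the lesion (log2 difference 3.47 ± 0.44, adjusted p = 7.93e-05), with 3 outside-lesion arrays under the floor. The inhibitors divided. Timp1 read 4737, 1719, 3522 and 2231 in ATLO against 728, 295, 243 and 326 outside the lesion (log2 difference 2.97 ± 0.37, adjusted p = 6.63e-05). Timp4, which fat tissue expresses, read 552, 311, 639 and 416 in ATLO against 1730.0, 1335, 1047 and 1027 outside the lesion (log2 difference -1.44 ± 0.23, adjusted p = 4.38e-04).

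Of 10 class II antigen presentation genes 8 were higher and 0 lower (median 1.98), against 5 of 11 class I genes higher and 0 lower (median 0.36, 3 with the actin covariate). Whether the classes differ was not tested. H2-Oa, a class II peptide exchange regulator of B cells, read 649, 1554, 549.8 and 1093 in ATLO against 66.4, 109, 197 and 209 outside the lesion (log2 difference 2.75 ± 0.51, adjusted p = 0.00112). Ifi30, a lysosomal reductase, read 4671, 5917, 5567 and 4999 in ATLO against 978, 964, 1029.9 and 1140.4 outside the lesion (log2 difference 2.36 ± 0.20, adjusted p = 1.14e-05). H2-Aa, bright in both tissues, did not pass, at 27692, 11139, 22568 and 19479.8 in ATLO against 22363, 16715, 11761 and 16823 outside the lesion (log2 difference 0.22 ± 0.27, adjusted p = 0.573). In class I, the peptide transporter Tap1 read 1713, 1722, 1319 and 1288 in ATLO against 466, 512, 600.1 and 484 outside the lesion (log2 difference 1.54 ± 0.15, adjusted p = 1.99e-05). The immunoproteasome subunit Psmb9 read 1024, 1982, 868 and 1076 in ATLO against 533, 524, 469.9 and 490.3 outside the lesion (log2 difference 1.22 ± 0.22, adjusted p = 0.00101). B2m, the light chain, did not pass (-0.13). Complement genes were higher in 8 of 12 and lower in 1 (median 1.13). C3ar1, a receptor of activated C3, read 1525, 919, 1623 and 1333 in ATLO against 428, 479.9, 259 and 357 outside the lesion. C1qc, of the first component, read 8777, 4996, 7479 and 5125 in ATLO against 2500.0, 2460.3, 1097 and 2202 outside the lesion. The fall was the membrane inhibitor Cd59a, at 864, 515, 758 and 886 in ATLO against 1525, 1546, 2117 and 1750.1 outside the lesion (log2 difference -1.22 ± 0.18, adjusted p = 2.56e-04).

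Interferon-induced genes were higher in 12 of 23 members and lower in 1 (median 0.73, 7 higher with the actin covariate). Irf8, a factor of B cells, dendritic cells and macrophages, read 1229, 2323, 1791 and 1894 in ATLO against 190.4, 386, 245 and 314 outside the lesion (log2 difference 2.69 ± 0.31, adjusted p = 4.43e-05). Several classical targets did not pass, among them Ifit3 (0.68), Irf7 (0.38) and Rsad2 (-0.44). The fall was Ifi27l2a, at 10649.7, 6328, 16636 and 13081 in ATLO against 42567, 18860.1, 20116 and 18635 outside the lesion (log2 difference -1.09 ± 0.31, adjusted p = 0.0173), which outside-lesion replicate 1 led by a wide margin and which lost its call with the actin covariate. The interferon response motif searched, GAAANNGAA on both strands, occurred in 7.13% of all 32851 promoters, 8.26% of those of genes called higher, 5.82% of those called lower and 12 of 22 (54.5%) of those the table holds for 18 members of this list. The promoter of Cxcl10, at chr5:92348890-92349139 on the minus strand, is shown because it is the list's largest rise and carries both this motif, in capitals 213 bases before the start, and 159 bases before it an NF-kappaB-like match, GGGANNTTC.
Cxcl10: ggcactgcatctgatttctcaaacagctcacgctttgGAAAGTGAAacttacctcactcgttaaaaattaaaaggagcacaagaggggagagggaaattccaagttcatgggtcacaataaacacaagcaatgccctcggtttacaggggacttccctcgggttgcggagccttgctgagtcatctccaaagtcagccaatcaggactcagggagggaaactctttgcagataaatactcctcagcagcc
The NF-kappaB-like motif occurred in 3.23% of all promoters, 3.45% of those of genes called higher and 2.94% of those called lower.

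In the list of high endothelial venule and leukocyte homing genes, 8 of 13 measured members were higher and 0 lower (median 1.55). Its members Chst4, Chst2, Fut7, Madcam1, Sele and Itga4 were too dim to pass the filter and were not tested. Itgb2, the leukocyte integrin chain, read 2424, 3570.3, 2436 and 2112 in ATLO against 292, 509, 295 and 392 outside the lesion (log2 difference 2.83 ± 0.26, adjusted p = 1.65e-05). Vcam1, which activated vessels and follicular stroma display to leukocyte integrins, read 4046, 3613, 3483 and 3031 in ATLO against 709, 855, 477 and 638 outside the lesion (log2 difference 2.43 ± 0.21, adjusted p = 1.15e-05). Stromal genes of lymphoid follicles were higher in 7 of 11 (median 1.34), with the podoplanin gene Pdpn, of reticular and lymphatic cells, at 2326, 1761, 2489.6 and 1886 in ATLO against 980.4, 799.5, 889 and 1045 outside the lesion (log2 difference 1.18 ± 0.18, adjusted p = 2.40e-04). Pdpn was also the single gene called among 7 of lymphatic endothelium (median 0.05).

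Blood vessel endothelial genes were lower in 12 of 22 members and higher in 0 (median -0.66). Kdr, the main receptor for vascular endothelial growth factor, read 433, 515, 395 and 599 in ATLO against 1211, 1454, 1427 and 1113 outside the lesion (log2 difference -1.43 ± 0.16, adjusted p = 3.40e-05). The angiopoietin receptor Tek read 391, 299.6, 383 and 465 in ATLO against 495, 982, 785 and 825 outside the lesion (log2 difference -0.98 ± 0.22, adjusted p = 0.00373). The pan-endothelial gene Pecam1 did not pass (log2 difference -0.25 ± 0.29, adjusted p = 0.563). Only 4 members of the list, without Tek, were called with the actin covariate. Of 8 pericyte genes 2 were lower and 1 higher (median -0.47), and of 19 smooth muscle contractile genes 5 were lower and 0 higher (median -0.64). The pericyte genes Notch3 and Mcam had log2 changes of -0.72 and -0.55, and the growth factor receptor Pdgfrb, which fibroblasts share, of 0.55. All 3 calls were fragile: that of Notch3 was lost without ATLO replicates 1 or 2 or outside-lesion replicate 2, at -0.68 to -0.51, that of Mcam lost without ATLO replicates 2 or 3 or outside-lesion replicates 1 or 2, at -0.56 to -0.38 and that of Pdgfrb lost without ATLO replicates 1, 3 or 4 or outside-lesion replicates 1, 3 or 4, at 0.40 to 0.60. The largest smooth muscle fall was Myh11, the myosin heavy chain, at 1488, 556, 1963 and 1565 in ATLO against 2903, 6696, 1703 and 2094 outside the lesion (log2 difference -1.19 ± 0.41, adjusted p = 0.0417). Mustn1 followed, at 715, 366, 748 and 521 in ATLO against 1671, 2786, 580.2 and 899 outside the lesion (log2 difference -1.14 ± 0.39, adjusted p = 0.0374). The call of Myh11 was lost without ATLO replicates 1, 2 or 4 or outside-lesion replicates 1 or 2, at -1.30 to -0.79, and that of Mustn1 lost without ATLO replicates 2 or 4 or outside-lesion replicates 1 or 2, at -1.10 to -0.76. The smooth muscle count fell to between 0 and 2 without ATLO replicates 1, 2 or 4 or outside-lesion replicates 1 or 2. It was also 0 with the actin covariate (median -0.28), with array weights (median -0.34), without the filter on low values and in the test against a 1.2-fold change. It was 1 with the replicate block and 2 on only the 8 Apoe-deficient arrays and without the intensity trend. Acta2, smooth muscle actin, read 19878, 7081, 18768 and 12637 in ATLO against 31669, 33197, 12702 and 14879.8 outside the lesion (log2 difference -0.64 ± 0.36, adjusted p = 0.202). Its groups overlapped widely, with outside-lesion replicates 1 and 2 high and ATLO replicate 2 low.

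Fibroblast genes were divided. Of 17 collagens 7 were higher and 0 lower (median 0.64, 4 with the actin covariate). The fibril chain Col5a2 read 4697, 2705, 5124 and 3994 in ATLO against 1688, 1038, 849.5 and 1127 outside the lesion (log2 difference 1.82 ± 0.22, adjusted p = 6.33e-05). Col1a1, a chain of the main fibril collagen, read 2432, 1753, 6011 and 7100.0 in ATLO against 2433, 627, 798 and 637 outside the lesion (log2 difference 1.97 ± 0.47, adjusted p = 0.00596). Col1a1 overlapped, since outside-lesion replicate 1 read as high as ATLO replicate 1. The basement membrane chains Col4a1 and Col4a2 did not pass (-0.12 and 0.18). Lum, a proteoglycan that spaces collagen fibrils, read 10063, 6869.5, 8270.2 and 6566 in ATLO against 1809.6, 1424, 618 and 1138 outside the lesion (log2 difference 2.75 ± 0.28, adjusted p = 2.17e-05). Its relative Dcn did not pass, at 29276, 14015, 23421 and 20136 in ATLO against 27839, 22173, 12314 and 17192 outside the lesion (log2 difference 0.14 ± 0.27, adjusted p = 0.729). In all, 2 of 8 small proteoglycans and 8 of 17 elastic fibre genes were higher and 0 lower (medians 0.21 and 0.54). The proteoglycan count was 1 with equal medians and 4 with quantile normalization. Fmod, a proteoglycan related to Lum, changed by 1.11, and the elastic fibre genes Mfap4 and Ltbp2 by 1.70 and 1.50. The call of Fmod was lost without ATLO replicates 1 or 4 or outside-lesion replicates 3 or 4, at 0.91 to 1.04, and that of Mfap4 lost without ATLO replicates 1, 3 or 4 or outside-lesion replicates 2, 3 or 4, at 1.38 to 1.73. The elastic fibre count was 3 to 5 without ATLO replicates 1, 3 or 4 or outside-lesion replicates 3 or 4, 5 with equal medians and 3 without the filter on low values. Of 9 secreted Wnt antagonists 3 were higher (median 0.89), Sfrp4 reading 6671, 5680.3, 11122 and 5204 in ATLO against 2144, 2351, 1385 and 1513 outside the lesion (log2 difference 1.92 ± 0.26, adjusted p = 1.25e-04).

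Adventitial fibroblast and progenitor markers were higher in 6 of 21 and lower in 0 (median 0.12). S100a4, of fibroblasts and monocytes, read 4059, 3561, 3447 and 3227 in ATLO against 969, 1053, 368 and 751 outside the lesion (log2 difference 2.29 ± 0.28, adjusted p = 5.69e-05). Fap, the protease of activated fibroblasts, read 1062, 1088, 950.5 and 947 in ATLO against 418, 219, 294 and 286 outside the lesion (log2 difference 1.77 ± 0.18, adjusted p = 2.20e-05). The progenitor markers Cd34 and Pi16 did not pass (-0.16 and -0.05). Of 26 genes of TGF-beta and BMP signalling 3 were higher and 4 lower (median 0.13), against a background of 19.8% and 14.9%. Fst, an activin antagonist, read 48.6, 136, 82.0 and 138 in ATLO against 200.4, 780.3, 315 and 406 outside the lesion (log2 difference -2.02 ± 0.42, adjusted p = 0.00247). Bmp6 read 104, 95.7, 159 and 105 in ATLO against 278, 557, 439 and 428 outside the lesion (log2 difference -1.86 ± 0.24, adjusted p = 9.05e-05). Id1 and Smad6, which BMP signals can induce, had log2 changes of -0.80 and -0.94. Both calls were lost with the actin covariate, and that of Smad6 also without ATLO replicate 2 or outside-lesion replicates 1 or 2, at -0.84 to -0.69. The 4 of 26 members lower lay near the 14.9% among all genes, and whether BMP signalling differed was not tested. Insulin-like growth factor genes were higher in 2 and lower in 2 of 13 (median 0.04). With equal medians 0 were higher and 4 lower (median -0.08), and with quantile normalization 1 and 3, so no direction is given. Irs1, the insulin receptor substrate, read 457, 651, 831 and 639.9 in ATLO against 1267, 1346, 1619 and 1324 outside the lesion (log2 difference -1.13 ± 0.18, adjusted p = 4.44e-04). Igfals, which holds these factors in circulating complexes, changed by -0.82, a call lost without outside-lesion replicate 2, at -0.67.

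Genes of dividing cells were higher in 21 of 28 members and lower in 0 (median 1.3), a count that was 7 with the actin covariate. Mki67, the proliferation antigen, read 772, 1564, 768 and 590.3 in ATLO against 55.7, 217, 102 and 122 outside the lesion (log2 difference 2.96 ± 0.64, adjusted p = 0.00318). Top2a read 477, 777, 473 and 463 in ATLO against 59.7, 280.5, 115 and 141 outside the lesion (log2 difference 2.06 ± 0.49, adjusted p = 0.0062). ATLO replicate 2, with the lowest actin ratio, was the highest array for both, and outside-lesion replicate 2 was the highest of its group. Top2a lost its call with the covariate. The translation machinery was read for the cytosol and the mitochondria. Of 25 cytosolic ribosomal proteins 1 was higher and 0 lower (median 0.17), 0 with equal medians and 13 with quantile normalization, so no direction is given. That gene, Rpl37, lost its call without outside-lesion replicate 4 (log2 change 0.48 in place of 0.53). Of 38 mitochondrial ribosomal proteins 29 were lower and 0 higher (median -0.68, 12 lower with the actin covariate). Mrps35 read 343, 388, 319.9 and 444 in ATLO against 1039, 647, 1047 and 962 outside the lesion (log2 difference -1.29 ± 0.18, adjusted p = 1.61e-04). Mrpl34 read 549.5, 526, 459 and 456 in ATLO against 1399, 753, 1424 and 1289 outside the lesion (log2 difference -1.25 ± 0.19, adjusted p = 2.93e-04). Proteasome subunits were lower in 3 of 31 (median -0.20), a share under the 14.9% among all genes, and the count was 8 with equal medians and 4 with quantile normalization. The largest of these falls, Psmb7 and Psma6, were -0.72 and -0.62 on the log2 scale, and the count was 1 without ATLO replicate 3 or 4. The call of Psmb7 was lost without ATLO replicates 3 or 4 or outside-lesion replicates 3 or 4, at -0.69 to -0.61.

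Genes of mitochondrial respiration were lower in nearly every member. All 21 measured enzymes of the tricarboxylic acid cycle were lower (median -1.81), as were all 33 nuclear subunits of complex I (median -1.54) and 34 of 37 of complexes III and IV and ATP synthase (median -1.44). Idh3a, of the cycle's isocitrate step, read 1781, 1459.5, 1486 and 1720.4 in ATLO against 9954, 4288, 11333 and 10551 outside the lesion (log2 difference -2.40 ± 0.28, adjusted p = 4.86e-05). Sucla2, a succinyl-CoA ligase subunit, read 2051, 1771, 1932 and 1973 in ATLO against 15283, 3608, 14372 and 12869 outside the lesion (log2 difference -2.38 ± 0.36, adjusted p = 2.52e-04). Ndufab1, the acyl carrier subunit of complex I, read 1985, 1682, 1442 and 1492 in ATLO against 7165, 4048, 8325 and 7678 outside the lesion (log2 difference -2.0 ± 0.22, adjusted p = 3.04e-05). Outside-lesion replicate 2 was the lowest of its group for all 3 and still above every ATLO array. Ndufa10, another complex I subunit, changed by -1.88. Without that array 21, 33 and 34 members were again called lower, with medians of -2.05, -1.78 and -1.68. With the actin covariate the counts stayed within 1.5-fold.

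Fatty acid oxidation genes were lower in 23 of 24 members (median -1.98). Acaa2, the thiolase of the last step, read 1309, 755, 1395 and 1430.1 in ATLO against 13819.5, 2379, 13698 and 13064 outside the lesion (log2 difference -2.89 ± 0.46, adjusted p = 4.07e-04). Slc27a2, a fatty acid transporter, read 6.2, 7.0, 27.8 and 39.7 in ATLO against 1984, 46.3, 1529 and 1516 outside the lesion (log2 difference -4.23 ± 0.97, adjusted p = 0.00476), so that 3 ATLO arrays were under the floor and outside-lesion replicate 2 was near it. The exception was Cpt1a, the carnitine transferase isoform of liver, lymphocytes and macrophages, at 1022, 978, 929 and 797 in ATLO against 752, 632, 509.6 and 584 outside the lesion (log2 difference 0.60 ± 0.15, adjusted p = 0.00884), which lost its call with equal medians and with the actin covariate. Ppara, the receptor that induces oxidation genes, was under the floor on every ATLO array and read 583, 124, 587 and 968 outside the lesion, at least 12.8-fold lower in ATLO. Peroxisome genes were lower in 16 of 17 (median -1.20), with Acaa1b, a peroxisomal thiolase, at 539.9, 283, 520.3 and 332 in ATLO against 2413, 1522, 3124 and 2187 outside the lesion (log2 difference -2.47 ± 0.29, adjusted p = 4.53e-05). Ech1, an isomerase of unsaturated fatty acids, changed by -2.09 on the log2 scale.

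Brown fat genes had the lowest median of all lists, -2.91 on the log2 scale, with 15 of 18 lower and 0 higher. Ucp1, the uncoupling protein that makes heat, read 14.2, 4.3, 695 and 661 in ATLO against 26125, 143, 26624 and 20513 outside the lesion (log2 difference -5.45 ± 1.58, adjusted p = 0.0177). Its signal was high on 3 outside-lesion arrays, but replicate 2 fell within the ATLO range, and the call was lost without ATLO replicates 1 or 2 or outside-lesion replicates 1 or 3 (log2 changes between -4.79 and -4.73). Cidea, which coats lipid droplets in brown fat cells, read 572, 360.1, 874 and 947 in ATLO against 15072, 2589.6, 15942 and 15745 outside the lesion (log2 difference -3.95 ± 0.50, adjusted p = 7.95e-05). Cox7a1, the muscle and brown fat form of a cytochrome oxidase subunit, read 119.5, 75.3, 409 and 343 in ATLO against 9036, 178, 11083 and 11142 outside the lesion. Cox8b, of the same enzyme, read 1377, 828, 2639 and 2696 in ATLO against 33038, 3658, 28427 and 27089.9 outside the lesion. The coactivator Ppargc1a, which drives mitochondrial growth, read 53.6, 47.1, 47.0 and 49.8 in ATLO against 741, 129, 497 and 273 outside the lesion (log2 difference -2.77 ± 0.50, adjusted p = 9.62e-04). The potassium channel Kcnk3 read 141, 114, 184 and 164 in ATLO against 1251, 836, 1525 and 1373 outside the lesion (log2 difference -3.04 ± 0.28, adjusted p = 1.59e-05). On outside-lesion replicate 2 Kcnk3 lay within 2-fold of the other arrays of its group, while Ucp1, Cox7a1 and Slc27a2 did not. Without that array 15 of 18 members were again lower (median -3.23), and with the actin covariate 8 were, without Ucp1, Cox7a1 and Slc27a2.

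White fat genes were lower in 19 of 22, with a median of -1.38 (11 with the actin covariate). Adipoq, the hormone adiponectin, read 15968, 8152, 11942 and 14621 in ATLO against 39107, 35535, 29539 and 29506 outside the lesion (log2 difference -1.43 ± 0.22, adjusted p = 2.88e-04). Gpd1, which supplies glycerol for triglyceride, read 2203, 944, 1788 and 1535 in ATLO against 7285, 6302, 12561 and 9909.8 outside the lesion (log2 difference -2.49 ± 0.27, adjusted p = 3.04e-05). The glycerol channel Aqp7 read 183, 86.5, 104 and 157 in ATLO against 664, 657, 595 and 574 outside the lesion (log2 difference -2.29 ± 0.22, adjusted p = 1.89e-05). The fat-cell master factor Pparg read 582, 301, 816 and 673 in ATLO against 2267, 1819.8, 3192 and 2769 outside the lesion (log2 difference -2.14 ± 0.28, adjusted p = 1.06e-04). None of these 4 overlapped, and outside-lesion replicate 2 stood with its group for all of them. Enzymes of fatty acid and triglyceride synthesis were lower in 16 of 18 (median -1.48, 8 with the actin covariate). Acacb, an acetyl-CoA carboxylase, read 477, 230.3, 428 and 324 in ATLO against 1527, 1761, 3362 and 2289 outside the lesion (log2 difference -2.60 ± 0.26, adjusted p = 2.17e-05). The elongase Elovl6 read 2019, 1378, 1317 and 1065 in ATLO against 2789.5, 8459.9, 8845 and 5724 outside the lesion (log2 difference -2.06 ± 0.34, adjusted p = 4.37e-04). Fat transcripts were still bright in ATLO tissue, where Adipoq read at least 8152.

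Glucose genes were lower in 15 of 20 and higher in 2 (median -1.08). Pdk4, which holds glucose carbon out of the cycle, read 408, 308, 475 and 601 in ATLO against 8130.4, 992, 7899.8 and 7561 outside the lesion (log2 difference -3.43 ± 0.54, adjusted p = 3.32e-04). Ldhb, the lactate dehydrogenase chain of oxidative tissues, changed by -2.40. The glucose transporter isoforms moved in different directions. The insulin-responsive Slc2a4 of fat and muscle read 712, 418, 755 and 601 in ATLO against 1969.6, 2592, 3822 and 2488 outside the lesion (log2 difference -2.12 ± 0.22, adjusted p = 2.20e-05). The widely expressed Slc2a1 read 1494, 1251, 1049.7 and 1227 in ATLO against 656, 655, 709 and 856 outside the lesion (log2 difference 0.80 ± 0.18, adjusted p = 0.00453). The Slc2a3 of leukocytes and neurons read 619, 1079, 840.2 and 839 in ATLO against 394, 461, 284 and 497 outside the lesion (log2 difference 1.05 ± 0.34, adjusted p = 0.029). Slc2a3 lost its call without ATLO replicates 2, 3 or 4 or outside-lesion replicates 1 or 3, where the log2 change lay between 0.88 and 1.04. Of 16 cholesterol synthesis genes 4 were lower and 1 higher (median -0.32), of 12 cholesterol efflux genes 2 and 1 (median 0.15), and of 14 iron and heme genes 4 and 0 (median -0.23). Among all genes 14.9% were lower and 19.8% higher, and the cholesterol efflux counts lay near or under those shares. Abcg1, a cholesterol exporter of macrophages, read 1202, 1129, 908 and 970.4 in ATLO against 529.9, 614, 581 and 689.8 outside the lesion (log2 difference 0.80 ± 0.18, adjusted p = 0.00362). Nr1h3, the sterol-sensing receptor LXR alpha, and Npc2, a lysosomal cholesterol carrier, changed by -0.62 and -0.59. The call of Nr1h3 was lost without ATLO replicates 2, 3 or 4 or outside-lesion replicates 1, 2 or 4, at -0.63 to -0.50, and that of Npc2 lost without ATLO replicates 2 or 4 or outside-lesion replicates 1, 2, 3 or 4, at -0.65 to -0.42. In cholesterol synthesis Pmvk and Fdft1 changed by -1.60 and -1.51, and Srebf2, the factor that drives the pathway, by 0.70, a call lost without ATLO replicate 2 or outside-lesion replicates 2 or 3, at 0.55 to 0.70 and also lost with equal medians and quantile normalization. The iron exporter Slc40a1 read 310.2, 244, 179 and 138 in ATLO against 544, 498, 290.0 and 387 outside the lesion (log2 difference -1.01 ± 0.27, adjusted p = 0.0123).

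**Figure D4:**
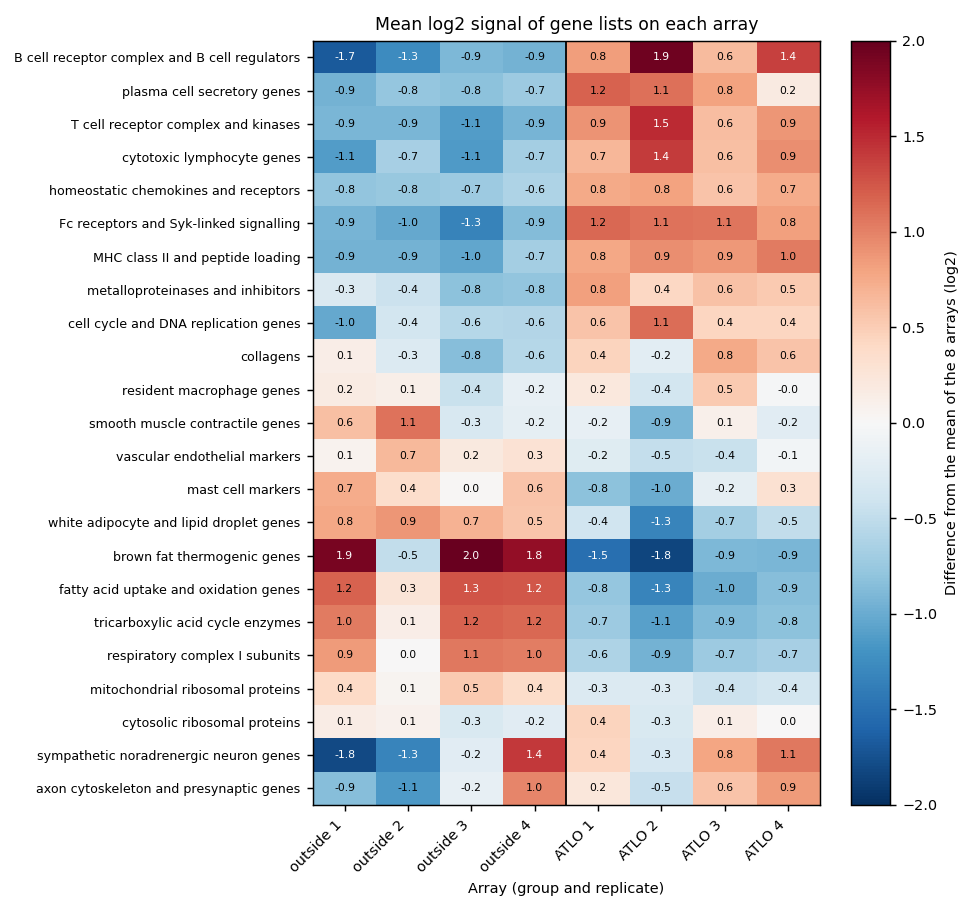
Mean log2 signal of 23 gene lists on each of the 8 arrays as the difference from the mean of the 8, from blue (lower) through white to red (higher). The lymphocyte, plasma cell, chemokine, Fc receptor and MHC class II lists are red on all 4 ATLO arrays, except that the plasma cell list is near white on ATLO replicate 4. The mitochondrial and brown fat lists are red on outside-lesion replicates 1, 3 and 4, while replicate 2 is low for brown fat and near white for the tricarboxylic acid cycle, complex I and mitochondrial ribosome lists. The neuron lists vary within the outside-lesion group, with replicate 4 highest.

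Nerve genes varied widely among the arrays of each group. Of 12 sympathetic neuron genes 0 passed although the median was 1.07, and of 24 axon genes 1 was higher (median 0.58). Th, the first enzyme of noradrenaline synthesis, read 717, 159.7, 463 and 995 in ATLO against 69.9, 49.3, 287 and 1368 outside the lesion (log2 difference 1.32 ± 1.01, adjusted p = 0.35). Dbh, a later enzyme, read 442, 286, 709 and 946 in ATLO against 81.9, 118, 292 and 1011 outside the lesion (log2 difference 1.22 ± 0.79, adjusted p = 0.268). Npy, the cotransmitter of sympathetic fibres, read 1975, 924, 2936 and 2407 in ATLO against 93.9, 288, 641 and 4656 outside the lesion (log2 difference 1.83 ± 1.07, adjusted p = 0.218). Outside-lesion replicate 4 was the highest of all 8 arrays for these 3 genes and replicates 1 and 2 were among the lowest. Without replicate 4 the log2 changes were 2.27 for Th, 1.93 for Dbh and 2.87 for Npy, and Npy alone passed. Without replicate 1 they were 0.84, 0.73 and 1.0. The called axon gene was Thy1, at 1950.3, 1787, 3059 and 2571 in ATLO against 1291, 1041, 637 and 1056 outside the lesion (log2 difference 1.23 ± 0.22, adjusted p = 8.12e-04), which T cells and fibroblasts also express. Of 12 Schwann cell genes 2 were higher and 1 lower (median 0.16), shares under the 19.8% and 14.9% among all genes. The fall was S100b, shared with fat cells, at 259, 328, 490.4 and 375 in ATLO against 966, 370.0, 1158 and 1579.6 outside the lesion (log2 difference -1.35 ± 0.35, adjusted p = 0.0102).

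Neurotrophic factors and their receptors were lower in 2 of 9 members and higher in 0 (median -0.13), against 14.9% lower among all genes. The largest rise in the list, 1.46 on the log2 scale, did not pass. Ntrk3 read 46.7, 55.8, 62.1 and 78.7 in ATLO against 108, 122, 251 and 323 outside the lesion (log2 difference -1.60 ± 0.36, adjusted p = 0.00396). Ntrk2 read 924, 551, 994 and 804 in ATLO against 1776, 1095, 1425 and 1508 outside the lesion (log2 difference -0.84 ± 0.20, adjusted p = 0.00545). Both lost their calls with the actin covariate, where the log2 change was -1.61 for Ntrk3 and -0.43 for Ntrk2. Of 36 axon guidance genes 5 were higher and 4 lower (median -0.07), shares under the 19.8% and 14.9% among all genes. These counts were 4 and 7 with equal medians, 4 and 6 with quantile normalization, and 2 and 0 with the actin covariate. Sema4d, a semaphorin of T cells, read 834, 1005, 892 and 946 in ATLO against 333, 263, 369.8 and 387 outside the lesion (log2 difference 1.46 ± 0.21, adjusted p = 1.73e-04). Plxnc1, a plexin of leukocytes, read 514, 974, 677 and 678 in ATLO against 216, 160.3, 219 and 453 outside the lesion (log2 difference 1.52 ± 0.34, adjusted p = 0.00388). The receptors Robo1, Plxnb2 and Epha3 were also higher, by log2 changes of 1.45, 1.31 and 1.05, the last a call lost without ATLO replicates 2 or 4 or outside-lesion replicates 3 or 4, at 0.84 to 0.91 and also lost with equal medians. Of 6 neurotransmitter and neuropeptide receptor genes 1 was higher, near the 19.8% among all genes. It was Ramp3, which tunes receptors of the calcitonin family, at 163, 114, 176 and 125 in ATLO against 44.5, 77.7, 21.6 and 27.2 outside the lesion (log2 difference 1.65 ± 0.33, adjusted p = 0.00188). Immediate early genes, which tissue handling can induce, were higher in 5 of 19 and lower in 0 (median 0.29, 0 with the actin covariate and 3 with equal medians), and without outside-lesion replicate 3 or 4 the count was 2. Egr2, which also serves Schwann cells, and Myc had the largest changes (1.35 and 1.23). Circadian clock genes were lower in 2 of 16 (median -0.27), a share under the 14.9% among all genes. Hlf changed by -1.11 and Per3 by -0.77, and the count was 4 with equal medians and with quantile normalization. Hox genes, which mark position along the body axis, were lower in 5 of 16 and higher in 0 (median -0.50). Hoxa9 read 192, 208, 242 and 307 in ATLO against 437, 1206, 958 and 719 outside the lesion (log2 difference -1.73 ± 0.28, adjusted p = 4.23e-04). Hoxa7 read 24.6, 13.5, 19.9 and 108 in ATLO against 182, 198, 122 and 167 outside the lesion (log2 difference -1.82 ± 0.44, adjusted p = 0.006).

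Mast cell genes were lower in 4 of 9 and higher in 0 (median -0.91), a count that was 1 without ATLO replicates 1 or 2 or outside-lesion replicates 1 or 4 and 0 with the actin covariate. Mcpt4, a protease of connective tissue mast cells, read 129, 102, 262 and 466 in ATLO against 833, 547, 396 and 943 outside the lesion (log2 difference -1.68 ± 0.42, adjusted p = 0.00775), and the groups overlapped through ATLO replicate 4 and outside-lesion replicate 3. Cpa3, the mast cell carboxypeptidase, read 509, 384, 778 and 1279.9 in ATLO against 2075, 1303, 899.7 and 1606 outside the lesion (log2 difference -1.08 ± 0.33, adjusted p = 0.0216), a call lost without ATLO replicates 1 or 2 or outside-lesion replicates 1 or 4, at -1.02 to -0.82.

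Marker genes of neighbouring tissues were read on the same arrays, and their part in the changes above was not tested. The summed signal of 6 brown fat markers lay between 6800.1 and 74552 outside the lesion, with replicate 2 lowest, and between 1339 and 4512 in ATLO, and for the 4 measured white fat markers between 42573 and 58864 and between 11800 and 26043. The 6 measured B cell markers summed to 555 to 1730 outside the lesion and 4146 to 14951 in ATLO, and 7 macrophage markers to 13511 to 24213 and 32892 to 50158. Fibroblast sums overlapped, 28913 to 75453 against 53458 to 103598. Of 3 measured mesothelial markers 0 exceeded a signal of 108.4 (the 40th percentile of deposited values) as the mean of either group, and of 3 adrenal cortex markers the defining Cyp11a1 was under the floor on all 8 arrays. Skeletal muscle markers summed to 176 to 1215 in ATLO, where replicate 3 was highest, and 257 to 508 outside the lesion, with 0 of 6 list members called, and of 2 measured erythroid and 2 mesothelial list genes 0 were called. Of 4 adrenal genes 1, Star, was lower (log2 change -0.51), a call lost without ATLO replicates 2 or 4 or outside-lesion replicates 1, 2 or 3, at -0.51 to -0.45.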

How the data were processed

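Labelled RNA was hybridised to Affymetrix mouse expression arrays, 1 per sample. The deposited values are linear intensities that the authors computed and scaled per array with GCOS 1.4, per the submitters' processing notes, to a like trimmed mean of about 500 (500.2 to 500.3 here). Probe sets were named through the platform annotation: 20380 of 22626 non-control probe sets had 1 symbol, 691 several and 1555 none. Those above their array's 40th percentile on at least 3 arrays (14988) were tested with limma 3.58.1 in R 4.3.3, with a mean per group over all 11 arrays, an intensity trend and Benjamini-Hochberg adjustment. The probe set with the highest mean over all arrays stood for a gene.

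Genes were named by largest moderated t, log2 change and signal difference and by the 2 largest called changes of each list; further members were picked after their values were seen. The groups and lists were chosen with earlier results of these data known. Promoters came from RefSeq (GRCm38.p6), which matched 1438 of the 1796 genes called higher and 1111 of the 1352 lower. In 1 simulation with independent normal noise, 100 of 14988 probe sets were changed 2-fold and another 100 were changed 4-fold. The fit recovered 47% and 85% of them, with 9 false calls. In the data 31.9% of probe sets were called, a far larger share than was changed there, so these figures do not carry over to the comparison. Alternatives were scaling, floor, filter, array set, replicate block, array weights, trend, the actin ratio as a covariate, a test against 1.2-fold and leaving out each array.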

Additional observations from a re-analysis of the deposited data

Results flagged for a closer look

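Within each group of 4 arrays, an array was singled out where its gap to the nearest other array exceeded Dixon's 95% critical share of the group's range. Chance alone singles out about 1 in 20 groups. This happened for 10 of 138 list and array measures and for 37 of 420 gene and group pairs.

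Outside-lesion replicate 2 was the low array for fat-burning and mitochondrial genes. Mean log2 signals there were 8.37 for brown fat genes, 11.2 for fatty acid oxidation, 11.8 for the tricarboxylic acid cycle and 12.5 for complexes III and IV and ATP synthase. Its signals were low for Ucp1 (143), Cox7a1 (178), Cidea (2589.6), Cox8b (3658), Slc27a2 (46.3), Pdk4 (992), Acaa2 (2379), Coq8a (748), Ech1 (3299), Idh3a (4288), Sucla2 (3608) and Mrpl34 (753). The same array was high for Notch3 (2178).

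Outside-lesion replicate 3 was low for T cell receptor genes (mean log2 signal 6.77) and cathepsins (9.96), and for C1qc (1097), Cd74 (3419.7), H2-Eb1 (3015) and Ctsw (36.6). Outside-lesion replicate 1 was high for Ifi27l2a (42567), ND5 (57967), Ltbr (806) and Frzb (90.8) and low for Jchain (2544). Outside-lesion replicate 4 was high for Cd3d (128) and Mmp13 (36.4). The Mmp13 signal was just above the floor, with the rest of its group under it, so it is not a sign of high expression.

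ATLO replicate 2 was high for TNF family genes (mean log2 signal 8.99), the phagocyte oxidase (9.76), cholesterol synthesis (8.68) and Top2a (777), and low for Acaa2 (755), Col4a1 (2619), Dbi (8168) and Psma6 (3802). ATLO replicate 1 was high for lipid-associated macrophage genes (11.2). ATLO replicate 4 was low for Creld2 (2261), Slpi (2618), Adgre1 (1166) and Apoe (86.9) and high for Hoxa7 (108), Slc27a2 (39.7) and 1110032A03Rik (322). The Slc27a2 signal was just above the floor, and for Hoxa7 and Slc27a2 the other ATLO arrays were under it. ATLO replicate 3 was low for Ccr7 (139.9).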

How the results depend on the processing

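All 4777 calls kept their direction under every alternative in which their probe set was tested. Several alternatives leave the log2 changes as they are, so the direction could not turn there. These were the changed filters, the 8-array fit without a covariate, the replicate block, the fit without a trend and the 1.2-fold test. The count of calls changed by over 1.5 times under 2 alternatives. With the actin ratio as a covariate on the 8 arrays it was 2252, with 1193 higher and 1059 lower. In limma's test against a 1.2-fold change it was 2835, with 1517 higher and 1318 lower. Leaving out 1 array at a time gave 4003 to 4634 calls, 2187 to 2634 higher and 1779 to 2000 lower. With a replicate block on the 8 arrays 4354 probe sets were called, 2465 higher and 1889 lower. The replicate numbers were not taken as pairs, since the same-number correlations of deviations were 0.142, 0.0749, 0.0397 and 0.153, and not every array correlated best with its own number. Equal medians gave 1985 higher and 2517 lower and quantile normalization 2378 and 2477. The remaining alternatives gave 3922 calls of 9351 tested probe sets (filter at the 60th percentile) to 5211 (array weights). Signals near the floor limit what can be seen in dim genes, and 4 arrays a group limit the rest. Of the genes named above, the actin covariate ended the calls of Car3, Cd3e, Coq8a, Cox7a1, Cpa3, Cpt1a, Cxcr5, Egr2, Epha3, Fabp4, Fmod, Id1, Ifi27l2a, Igfals, Igha, Il15ra, Lpl, Mcam, Mcpt4, Mustn1, Myc, Myh11, Nfkb2, Notch3, Npc2, Nr1h3, Ntrk2, Ntrk3, Pdgfrb, Per3, Plin2, Plxnc1, Psma6, Robo1, Rpl37, S100b, S1pr1, Slc27a2, Slc2a3, Slc40a1, Smad6, Srebf2, Star, Tek, Top2a and Ucp1, and a floor at the 40th percentile those of Car3, Epha3, Gstp3, Il15ra, Npc2, Ntrk3, Ramp3, Robo1 and Trem2. Leaving out the filter on low values ended those of Car3, Cox7a1, Cpa3, Epha3, Fabp4, Fdft1, Fmod, Ifi27l2a, Igha, Il15ra, Jchain, Mcam, Mfap4, Mustn1, Myh11, Notch3, Npc2, Nr1h3, Pdgfrb, Psmb7, Slc2a3, Smad6 and Ucp1. The test against a 1.2-fold change ended those of Car3, Cpa3, Cpt1a, Epha3, Fabp4, Fmod, Ifi27l2a, Igfals, Il15ra, Mcam, Mfap4, Mustn1, Myh11, Notch3, Npc2, Nr1h3, Pdgfrb, Per3, Psma6, Psmb7, Rpl37, S1pr1, Slc2a3, Smad6, Srebf2, Star and Xbp1. The fit on only the 8 Apoe-deficient arrays ended those of Car3, Fabp4, Mcam, Mustn1, Myh11, Npc2, Pdgfrb and Star, and the replicate block those of Igfals, Mcam, Mustn1, Myh11, Notch3, Npc2, Pdgfrb, Rpl37, Smad6, Srebf2 and Star. Array weights ended those of Cpa3, Igha, Mcam, Mustn1, Myh11, Notch3, Smad6 and Srebf2, and leaving out the intensity trend those of Il15ra, Mcam, Mustn1, Myh11 and Pdgfrb. Equal medians ended those of Cpt1a, Epha3, Fmod, Pdgfrb, Rpl37 and Srebf2, quantile normalization those of Epha3, Psma6, Slc2a3 and Srebf2, and a floor at the 10th percentile that of Il15ra. A call lost with the actin covariate need not mean a smaller change. With it the log2 changes of Fmod, Nr1h3, S1pr1 and Pdgfrb were larger in size, while others, such as those of Car3 and Fabp4, were smaller. The cause was not tested.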
